A study of Danio rerio with 4 samples.

Results

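Retinal ganglion cells (RGCs) are represented here by 10 genes of their specification and axon growth, which were looked up by symbol in both stage tables of zebrafish eyes carrying mutations in *tet2* and *tet3*. All 10 were among the 31950 genes listed at 72 hours post fertilization (hpf), and 9 were among the 31388 listed at 36hpf, where *gap43* had no row. The genes were divided by known role into 3 early specifiers (*atoh7*, *pou4f2* and *isl1*) and 7 later markers (*pou4f1*, *pou4f3*, *isl2a*, *isl2b*, *rbpms2b*, *gap43* and *alcama*), and their change between genotypes was followed at both stages.

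The series held 4 samples of the TL strain, 1 labelled tet2-/-;tet3-/- mutant and 1 labelled sibling at each stage. Each was poly-A RNA of dissected whole eyes, from a collection of 100 eyes per stage pooled over embryos. Mutants carried the frameshift alleles *tet2* au59 and *tet3* au60 in every cell and came from in-crosses of double heterozygotes. The controls were phenotypically wild-type siblings of those crosses, so they can carry 1 or more mutant copies, and no agent was given to either genotype. Tet enzymes oxidise methylated cytosine in DNA, and the comparison asks how RNA levels in the developing eye differ when *tet2* and *tet3* are inactivated. With 1 library per genotype and stage there was no replicate error and no test, so each difference compares 2 libraries, and it cannot be told apart from variation between collections of eyes.

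RGCs are the output neurons of the retina and the first retinal neurons to be born, and their axons form the optic nerve. The proneural factor Atoh7 is needed for progenitors to become RGCs in zebrafish and mouse, and it is switched on briefly as progenitors leave the cell cycle. The homeodomain factors Pou4f2 and Isl1 act after it in mouse to turn on the RGC programme, and proteins of axon growth, adhesion and RNA binding follow as the cells mature.

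The targeted genes were measured first. At 36hpf *tet2* had 12459 reads in mutant-labelled and 9646 in sibling-labelled eyes, and *tet3* had 8611 in mutant-labelled and 8381 in sibling-labelled eyes. At 72hpf *tet2* was at 34.1 FPKM (fragments scaled for transcript length and library depth) in mutant-labelled and 33.6 in sibling-labelled eyes, and *tet3* at 37.9 in mutant-labelled and 55.9 in sibling-labelled eyes. Reads over the whole gene include transcripts with the frameshift alleles. Neither gene was lost from a library labelled mutant, so the libraries are called mutant-labelled and sibling-labelled throughout, and each direction rests on the labels. Other genes did differ with the labels at 72hpf. The ultraviolet opsin gene *opn1sw1* was at 32.1 FPKM in mutant-labelled and 3591 FPKM in sibling-labelled eyes, and *nppa*, a heart natriuretic peptide gene, at 12.1 FPKM in mutant-labelled and 0.151 FPKM in sibling-labelled eyes. At 36hpf the mutant-labelled library held 106912677 reads and the sibling-labelled library 88875538, and the FPKM at 72hpf carry no depth per library.

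At 36hpf the early specifiers were the low end of the RGC genes. *atoh7* was 28.9-fold lower, *pou4f2* 7.25-fold lower and *isl1* 4.05-fold lower in mutant-labelled eyes, whereas the later markers lay between log2 changes of -1.02 and 1.24. Reads were summed per gene and scaled between libraries by TMM (trimmed mean of M-values). A change is the log2 ratio of mutant-labelled over sibling-labelled eyes with 0.5 reads added, taken for 21876 genes with at least 20 reads, and its 95% exact interval covers counting error only.

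*atoh7* (GRCz10 chr13:25319231-25320275) had 585 reads in mutant-labelled eyes, against 13794 in sibling-labelled eyes. This was a change of -4.85 (95% interval -4.98 to -4.73), the 36th lowest of all 21876 genes. Each deposited value is the mean of 2 counts, and both counts showed the difference, with 357 and 228 reads in mutant-labelled eyes against 8093 and 5701 in sibling-labelled eyes. In a bulk sample, fewer cells of a type and less RNA per cell cannot be told apart, here and for every gene that follows.

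*pou4f2* (chr1:35704909-35708274) was scarce, with 23 reads in mutant-labelled eyes and 136 in sibling-labelled eyes. Its change was -2.83 (interval -3.56 to -2.21), and the 2 counts were 16 and 7 in mutant-labelled against 77 and 59 in sibling-labelled eyes. *isl1* (chr5:40128460-40133892), which is also expressed by amacrine, bipolar and cranial sensory neurons, had 597 reads in mutant-labelled and 1972 in sibling-labelled eyes. Its change of -2.02 (interval -2.15 to -1.89) lay at the threshold of 2 that the study's methods use, and it was -1.99 when libraries were scaled by total count. Its 2 counts were 373 and 224 in mutant-labelled against 1143 and 829 in sibling-labelled eyes. All 3 early specifiers were therefore lower in mutant-labelled eyes by more than counting error. Each of their 2 counts showed this, but their agreement is not read as replication. The larger count held 63.8% of all reads in mutant-labelled and 58.6% in sibling-labelled eyes. For *atoh7* it held 61.0% in mutant-labelled and 58.7% in sibling-labelled eyes.

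The later transcription factors did not move as a group at 36hpf. *isl2b* (chr7:29721739-29725744), a LIM-homeodomain gene whose promoter is widely used to label zebrafish RGCs, had 56 reads in mutant-labelled and 93 in sibling-labelled eyes (change -1.02, interval -1.53 to -0.53). Its paralog *isl2a* (chr25:32338903-32345058) lay on the other side of 0, with 436 reads in mutant-labelled and 283 in sibling-labelled eyes (change 0.33, interval 0.11 to 0.55). Its change was 0.11 with only the larger and 0.66 with only the smaller of the 2 counts. *pou4f1* (chr6:4379877-4382908), a POU factor of RGCs and of sensory and habenular neurons, had 82 reads in mutant-labelled and 28 in sibling-labelled eyes (change 1.24, interval 0.62 to 1.93). The interval of *pou4f1* reached below 1, and its 2 counts were 58 and 24 in mutant-labelled against 15 and 13 in sibling-labelled eyes. *pou4f3* (chr9:54790772-54792038), a POU factor of RGCs and hair cells, had 1 read in mutant-labelled eyes and 0 in sibling-labelled eyes. Both values are under a floor of 3 reads, so no change was computed for it and it was not detectable at this depth.

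The remaining later markers also divided. *rbpms2b* (chr7:47979862-47990857), an RNA-binding protein gene used as an RGC marker, had 3463 reads in mutant-labelled and 5599 in sibling-labelled eyes (change -0.99, interval -1.05 to -0.93). *alcama* (chr10:28845124-28949177) encodes the adhesion molecule neurolin, which the Zn8 antibody detects on RGC axons. It had 8874 reads in mutant-labelled and 5213 in sibling-labelled eyes (change 0.47, interval 0.42 to 0.52). *gap43*, a growth cone protein gene placed on the scaffold KN150239.1 in the 72hpf table, could not be followed at 36hpf. None of the 10 gene intervals overlapped that of another gene in the 72hpf table.

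Of the 8 RGC genes that reached 20 reads at 36hpf, 3 had a change of -2 or less, against 1.4% of all genes, and 4 had a change of -1 or less, against 6.15%. In the other direction 1 gene (*pou4f1*) had a change of 1 or more, against 8.9% of all genes, and 0 genes a change of 2 or more, against 1.77%. The median change was -1.003, beside 0.01 over all genes. *pou4f3* did not reach the minimum and *gap43* had no row, so these counts leave both out.

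**Figure D1:**
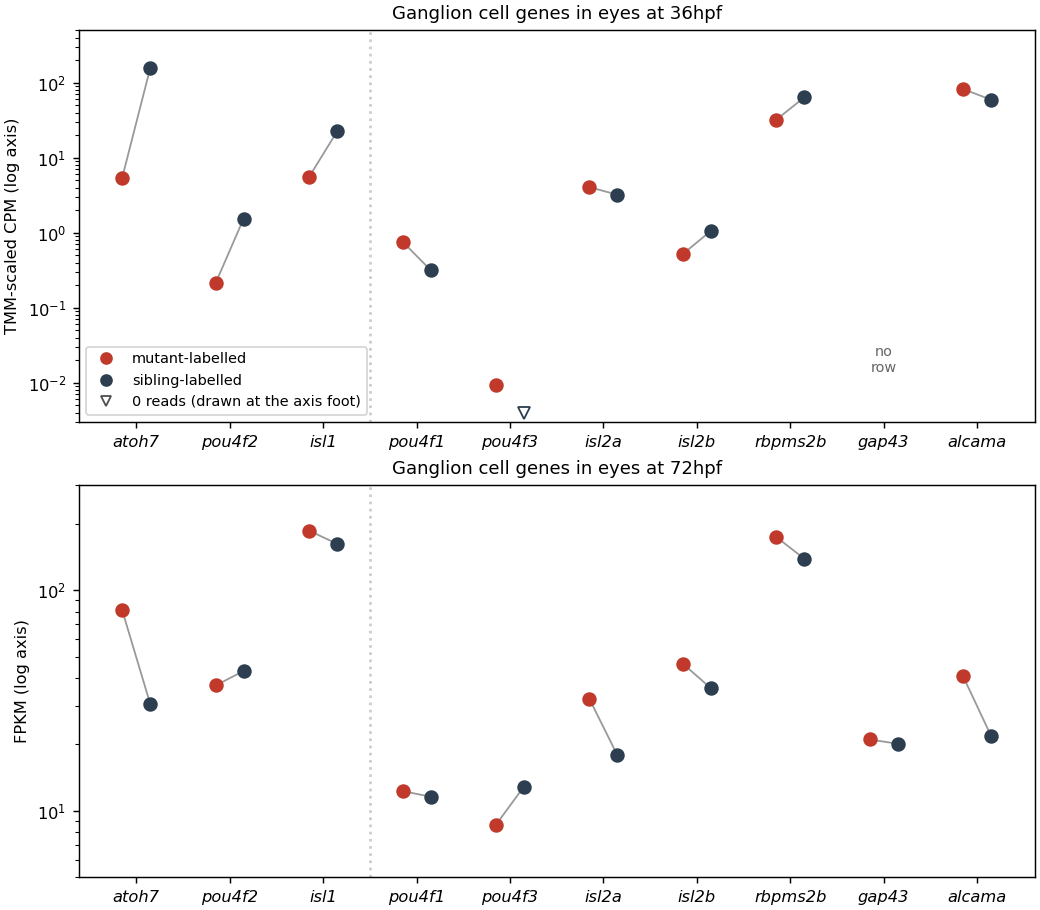
Level of each RGC gene in mutant-labelled eyes (red, left of each pair) and sibling-labelled eyes (dark, right), 1 library per point, at 36hpf in TMM-scaled CPM (read counts divided by library size) and at 72hpf in FPKM, both on log axes. *atoh7*, with the early specifiers left of the dotted line, was at 5.42 CPM in mutant-labelled and 157 in sibling-labelled eyes at 36hpf, the open triangle marks 0 reads of *pou4f3*, and heights compare between genes only in the lower panel.

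At 72hpf the early specifiers were no longer the low end, and *atoh7* stood on the opposite side. Its level was 81.2 FPKM in mutant-labelled and 30.5 FPKM in sibling-labelled eyes, a 2.66-fold higher value. *isl1* was 1.15-fold higher and *pou4f2* 1.16-fold lower in mutant-labelled eyes. Changes at this stage are differences of log2(FPKM + 1), taken for 17307 genes with at least 1 FPKM in either library, and no counting interval can be given.

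The change of *atoh7* at 72hpf was 1.38, the 178th highest of 17307 genes. *isl1* was at 187 FPKM in mutant-labelled and 162 FPKM in sibling-labelled eyes, a change of 0.20. *pou4f2* was at 37.0 FPKM in mutant-labelled and 43.0 FPKM in sibling-labelled eyes, a change of -0.21. *atoh7* was thus the early specifier that stood out, and *isl1* and *pou4f2* lay near 0.

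The later transcription factors were present at 72hpf in both genotypes. *isl2a* was at 32.2 FPKM in mutant-labelled and 17.8 FPKM in sibling-labelled eyes (change 0.82), and *isl2b* was at 46.5 FPKM in mutant-labelled and 36.0 FPKM in sibling-labelled eyes (change 0.36). *pou4f1* was at 12.3 FPKM in mutant-labelled and 11.6 FPKM in sibling-labelled eyes (change 0.08). *pou4f3*, which was not detectable at 36hpf, was at 8.62 FPKM in mutant-labelled and 12.9 FPKM in sibling-labelled eyes (change -0.53), the lowest change of the 10 genes. Both *isl2* paralogs were therefore higher, and the 3 POU factors lay between -0.53 and 0.08.

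Markers of axons and mature RGCs were also detected in both libraries. *alcama* was at 40.7 FPKM in mutant-labelled and 21.8 FPKM in sibling-labelled eyes (change 0.87). *rbpms2b* was at 175 FPKM in mutant-labelled and 139 FPKM in sibling-labelled eyes (change 0.33), and *gap43* at 21.0 FPKM in mutant-labelled and 20.1 FPKM in sibling-labelled eyes (change 0.06). None of these axon and maturation markers was lower in mutant-labelled eyes at this stage.

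Of the 10 genes, 8 had changes above 0 and 2 below 0 at 72hpf, with a median of 0.26, beside 0.02 over all genes. A change of 1 or more was found for 1 gene, *atoh7*, against 3.65% of all genes. No RGC gene reached -1, against 9.02% of all genes, or -2, against 1.77%, and none reached 2, against 0.254%. Because FPKM is per length, levels can be ordered within a 72hpf library, although with 1 library neighbours in the order cannot be told apart. In mutant-labelled eyes the order by FPKM was *isl1*, *rbpms2b*, *atoh7*, *isl2b*, *alcama*, *pou4f2*, *isl2a*, *gap43*, *pou4f1* and *pou4f3*. In sibling-labelled eyes it was *isl1*, *rbpms2b*, *pou4f2*, *isl2b*, *atoh7*, *alcama*, *gap43*, *isl2a*, *pou4f3* and *pou4f1*. *atoh7* was thus the third of the 10 in mutant-labelled eyes and the fifth in sibling-labelled eyes, at rank 747 from the top of the 31950 genes listed in mutant-labelled eyes and at rank 2395 in sibling-labelled eyes.

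The 2 stages were then set side by side. They were sequenced and processed separately, as counts and as FPKM, so no level is compared between them, but the change between genotypes within each stage is free of gene length. *atoh7* differed most, with -4.85 at 36hpf and 1.38 at 72hpf, a difference of 6.24. The other early specifiers differed by 2.62 (*pou4f2*) and 2.22 (*isl1*), each with a low value at 36hpf and a value near 0 at 72hpf. Among later markers *isl2b* differed by 1.38, *rbpms2b* by 1.31, *isl2a* by 0.49, *alcama* by 0.40 and *pou4f1* by -1.16. Hence *isl2a*, *alcama* and *pou4f1* were above 0 at both stages, and *pou4f2* was below 0 at both. *atoh7*, *isl1*, *isl2b* and *rbpms2b* were below 0 at 36hpf and above it at 72hpf.

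**Figure D2:**
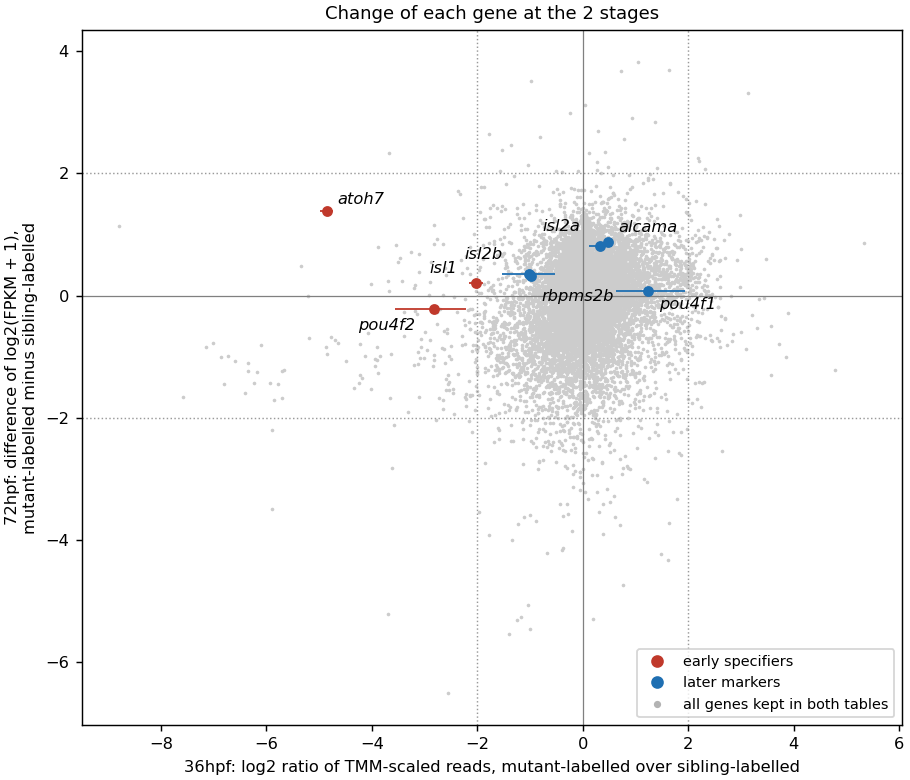
Change of each gene at 36hpf (x axis, log2 ratio of scaled reads) against 72hpf (y axis, difference of log2(FPKM + 1)), mutant-labelled against sibling-labelled eyes, for the 15441 genes kept in both tables (grey). Early specifiers are red, later markers blue, bars are 95% intervals for counting error at 36hpf, and dotted lines mark changes of 2. *atoh7* lies at -4.85 and 1.38, left of and above the bulk of genes, and 8 RGC genes had a value at both stages.

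A change of -2 or less at 36hpf together with 1 or more at 72hpf was found for 8 of these 15441 genes, 0.0518%, and *atoh7* was 1 of them. This uneven pair of limits was not among the planned comparisons, and *atoh7* did not reach 2 at 72hpf. Of the 8 genes, *hoxb3a* and *myod1* reached 1 FPKM only in mutant-labelled eyes, so the filter fixed their sign at 72hpf. Taken singly, 1.4% of the 21876 genes kept at 36hpf passed the limit there, and 3.65% of the 17307 kept at 72hpf passed the other. Whether the overlap exceeds that of unrelated stages was not tested, so being 1 of these 8 genes is not read as a result about *atoh7*.

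Early specifiers were compared with later markers directly, a measure from which the scaling of the libraries cancels. At 36hpf the later markers had a median change of 0.33 over 5 genes, which is the value of *isl2a* and was 0.11 with only the larger and 0.45 with only the smaller of the 2 counts. Relative to that median *atoh7* lay at -5.18, *pou4f2* at -3.16 and *isl1* at -2.35. At 72hpf the median was 0.33 over 7 genes, a different set, and relative to it *atoh7* lay at 1.06, *pou4f2* at -0.54 and *isl1* at -0.13. All 3 early specifiers were thus below the range of the later markers at 36hpf (-1.02 to 1.24), and at 72hpf only *atoh7* was outside their range of -0.53 to 0.87. The genes were chosen with earlier results of these data known, so this comparison is a description.

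Other genes of the RGC lineage were read from 4 lists. The first named 10 transcription factors, of which 9 were found by symbol and *sox4a* was not. Of these 9, 8 had a change below 0 at 36hpf, 4 of them -1 or less against 6.15% of all genes, with a median of -0.95. *tbr1b*, a T-box factor of RGC subtypes in mouse, had 284 reads in mutant-labelled and 1425 in sibling-labelled eyes (change -2.62). *eomesa*, its relative, had 359 reads in mutant-labelled and 1124 in sibling-labelled eyes (change -1.94). The highest values were 0.34 for *sox11b*, on 25 reads in mutant-labelled and 16 in sibling-labelled eyes with an interval that held 0, and -0.34 for *sox11a*. At 72hpf 7 of them reached 1 FPKM and the median was 0.01. *tbr1b* (2.05 FPKM in mutant-labelled, 5.58 FPKM in sibling-labelled eyes, change -1.11) and *eomesa* (5.46 FPKM in mutant-labelled and 9.14 FPKM in sibling-labelled eyes, change -0.65) were the lowest. *sox11a*, a factor of newborn neurons, had the highest change (111 FPKM in mutant-labelled and 45.3 FPKM in sibling-labelled eyes, change 1.28), followed by *onecut1* (15.5 FPKM in mutant-labelled and 7.53 FPKM in sibling-labelled eyes, change 0.95).

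Markers of RGCs and early neurons formed the second list, in which 9 of 12 genes were found by symbol. At 36hpf 7 had a change below 0, 5 of them -1 or less against 6.15% of all genes, and the median was -1.01. *cxcr4b*, a chemokine receptor gene of newborn RGCs, had 416 reads in mutant-labelled and 2406 in sibling-labelled eyes (change -2.82). *elavl4*, a neuronal RNA-binding protein gene, had 971 reads in mutant-labelled and 2673 in sibling-labelled eyes (change -1.75). The highest were *thy1*, with 4873 reads in mutant-labelled and 1341 in sibling-labelled eyes (change 1.57), and *rbpms2a*, the paralog of *rbpms2b*, at 0.17. At 72hpf the median was -0.01, and *cxcr4b* was higher in mutant-labelled eyes, at 21.7 FPKM against 9.19 FPKM in sibling-labelled eyes (change 1.16). *thy1* was at 16.8 FPKM in mutant-labelled and 9.26 FPKM in sibling-labelled eyes (change 0.79). The lowest were *sncga*, a synuclein gene, at 3.98 FPKM in mutant-labelled and 17.6 FPKM in sibling-labelled eyes (change -1.90), and *elavl4* at 22.3 FPKM in mutant-labelled and 43.7 FPKM in sibling-labelled eyes (change -0.94).

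Genes of the axonal cytoskeleton leaned the same way at both stages. Of 16 with at least 20 reads at 36hpf, 15 had a change below 0, 5 of them -1 or less against 6.15% of all genes, with a median of -0.70. The lowest were *stmn2b*, a microtubule regulator gene of growing axons (934 reads in mutant-labelled, 2479 in sibling-labelled eyes, change -1.70), and *crmp1* (255 reads in mutant-labelled and 641 reads in sibling-labelled eyes, change -1.62). The highest were *stmn4* at 0.56 and *inaa* at -0.05, which had only 13 reads in mutant-labelled and 11 in sibling-labelled eyes. At 72hpf 12 of 15 had a change below 0 and the median was -0.38. The neuronal intermediate filament gene *inaa* was at 2.07 FPKM in mutant-labelled and 21.8 FPKM in sibling-labelled eyes (change -2.89), and the tau gene *maptb* at 9.72 FPKM in mutant-labelled and 22.8 FPKM in sibling-labelled eyes (change -1.15). The thymosin gene *tmsb* (change 1.01) and *cap2* (change 0.22) were the highest. *gap43*, the growth cone gene of the 10, lay at 0.06 and so above the median of this list.

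Adhesion and axon exit genes lay around 0 at 36hpf, where 6 of 11 were below 0 with a median of -0.05. This list named 15 genes, and *l1cama*, *l1camb*, *nrcamb* and *robo2* were not found by symbol. *nrcama*, an adhesion molecule gene of the L1 family, was the lowest (354 reads in mutant-labelled, 813 in sibling-labelled eyes, change -1.49), followed by *DCC*, a netrin receptor gene, at -0.48. The netrin gene *ntn1b* at 0.67 and the Eph receptor gene *epha4b* at 0.55 were the highest. At 72hpf the median was 0.35 over 10 genes, and 3 had a change of 1 or more, against 3.65% of all genes. *epha4b* was at 18.7 FPKM in mutant-labelled and 6.68 FPKM in sibling-labelled eyes (change 1.36), and *cntn2*, an axonal contactin gene, at 37.0 FPKM in mutant-labelled and 17.6 FPKM in sibling-labelled eyes (change 1.03). *nfasca* at -0.74 and *DCC* at -0.70 were the lowest. *alcamb*, the paralog of *alcama*, had a change of -0.18 at 36hpf and 0.91 at 72hpf, beside 0.47 and 0.87 for *alcama*.

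**Figure D3:**
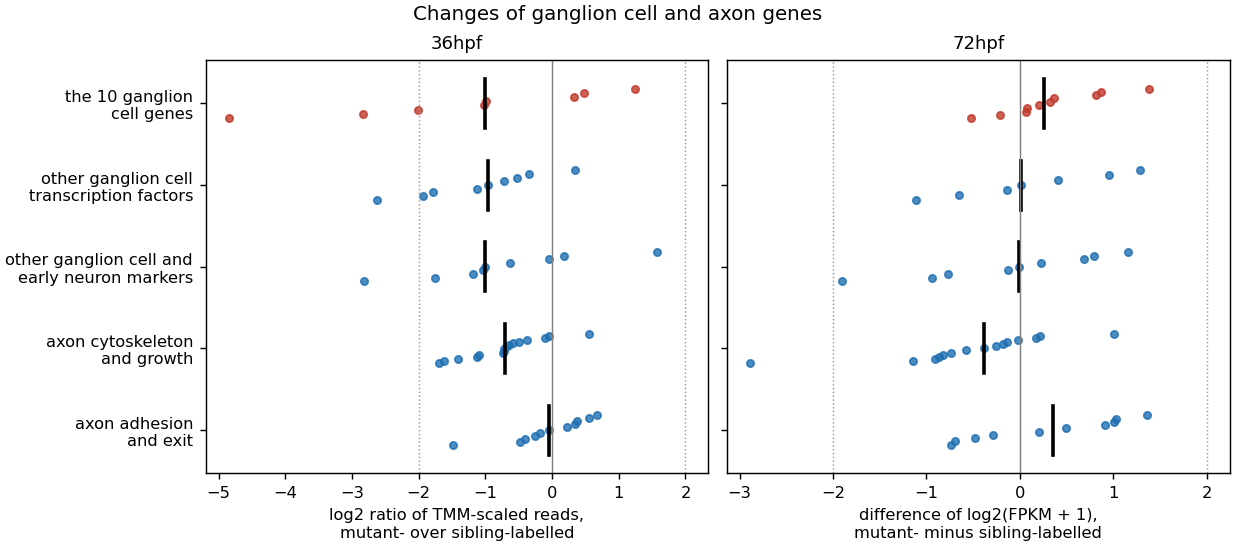
Change between mutant-labelled and sibling-labelled eyes for the 10 RGC genes (red) and the genes of 4 related lists (blue) at 36hpf (left) and 72hpf (right), 1 point per gene that reached the minimum, with black bars at the medians and dotted lines at changes of 2. At 36hpf the medians run from -1.01 to -0.05, and at 72hpf from -0.38 to 0.35.

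Markers of other cells in dissected eyes moved with the labels as well, and their part in the RGC values was not tested. At 36hpf all 7 lens genes were lower in mutant-labelled eyes (median -2.23, summed level 737 CPM in mutant-labelled against 3520 in sibling-labelled eyes). All 7 photoreceptor genes with enough reads were below 0 (median -1.08). Amacrine and horizontal cell genes went both ways (median -1.10). Of these 9 genes 5 were below 0, and all 5 were at -1 or less, against 6.15% of all genes. The lowest was *ptf1a* at -4.02, on 11 reads in mutant-labelled and 152 in sibling-labelled eyes. In the other direction 1 gene, *tfap2c* at 2.24, was at 1 or more, against 8.9% of all genes. The summed level of the 9 was 428 CPM in mutant-labelled against 308 CPM in sibling-labelled eyes. Progenitor genes had a median of -0.01, with 5 of 9 below 0. Müller glia genes were mostly higher at 36hpf (5 of 6 above 0, median 0.38), as were bipolar genes (3 of 4 above 0, median 0.25). Heart genes had a median of 1.05 over 5 genes at a low summed level (2.56 CPM in mutant-labelled and 1.53 CPM in sibling-labelled eyes). Lens and photoreceptor genes, and 5 of the 9 amacrine and horizontal cell genes, were thus low beside the early specifiers at 36hpf. At 72hpf 8 of 9 progenitor genes were higher in mutant-labelled eyes (median 0.63, summed level 776 FPKM in mutant-labelled against 517 FPKM in sibling-labelled eyes). Later-born cells stood the other way, since 8 of 9 photoreceptor genes were below 0 (median -2.30) with 6 at -2 or less, against 1.77% of all genes. Their summed level was 1037 FPKM in mutant-labelled and 10034 FPKM in sibling-labelled eyes. The medians were -0.96 for bipolar genes (4 of 5 below 0) and -0.62 for Müller glia genes (5 of 6 below 0), and -0.27 for amacrine and horizontal genes (7 of 9 below 0). The bipolar gene *cabp5b* reached 1 FPKM only in sibling-labelled eyes (0.48 FPKM in mutant-labelled, 5.52 FPKM in sibling-labelled eyes), so the filter fixed its sign. The progenitor gene *hes2.2*, named after its values were seen, followed the direction of *atoh7*, with -1.87 at 36hpf and 1.25 at 72hpf.

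Several RGC genes are also expressed by cranial sensory ganglia and hair cells, which a dissection could carry along. Of 14 marker genes of those cells 13 were kept at 36hpf, where 7 were below 0 and 6 above (median -0.03, summed level 49.6 CPM in mutant-labelled and 67.8 in sibling-labelled eyes). At 1 or more were 4 of the 13 (*runx3* 2.196, *drgx* 1.97, *p2rx3b* 1.63 and *six1b* 1.29), against 8.9% of all genes, beside 1.24 for *pou4f1*. Of these, *drgx* had only 40 reads in mutant-labelled and 8 in sibling-labelled eyes. At -1 or less was 1 of the 13 (*phox2bb* -1.23), against 6.15% of all genes, and *ntrk3a* lay at -0.99. At 72hpf 8 were kept and 7 of them were above 0 (median 0.67, summed level 27.0 FPKM in mutant-labelled against 16.1 FPKM in sibling-labelled eyes). Of these, *p2rx3a*, *p2rx3b*, *atoh1a*, *runx3* and *six1b* reached 1 FPKM only in mutant-labelled eyes, so the filter fixed their sign. Another 6 of the 14 were under 1 FPKM in both libraries. *neurog1* (change 1.48), *prph* (0.36) and *ntrk3a* (-1.07) reached 1 FPKM in both. None of the 14 was at 0 in mutant-labelled eyes, and *p2rx3a* was at 0 in sibling-labelled eyes at 72hpf. Marker genes of brain outside the retina had a median of -0.04 at 36hpf (5 below 0 and 5 above). At 72hpf their median was 0.11 (3 below 0 and 5 above). Among the brain genes above 0, *hoxb3a* and *emx3* reached 1 FPKM only in mutant-labelled eyes, so the filter fixed their sign. Past 2 at 36hpf were *hoxb3a* (0 reads in mutant-labelled, 199 in sibling-labelled eyes) and *egr2b* (48 in mutant-labelled, 7 in sibling-labelled eyes), in opposite directions. Skeletal muscle genes had a median change of 2.56 over 7 genes and heart genes 3.51 over 5 at 72hpf, with summed muscle levels of 186 FPKM in mutant-labelled against 27.2 FPKM in sibling-labelled eyes. The summed heart level was 54.8 FPKM in mutant-labelled against 1.31 FPKM in sibling-labelled eyes. The heart genes *myl7* and *cmlc1* were at 0 in sibling-labelled eyes at 72hpf. All 5 heart genes reached 1 FPKM only in mutant-labelled eyes at that stage, so the filter fixed the sign of each. The levels of *isl1*, *isl2a*, *pou4f1* and *alcama*, which such tissues can express, were not separated by cell type.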

How the data were processed

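Poly-A RNA of 4 samples was analysed. For 36hpf the authors mapped reads to GRCz10 and counted them in CLC Genomics Workbench. The deposited table is headed FPKM but holds expected counts, each the mean of 2 whole counts, beside log2 columns with the mean log2 of the same 2 counts. For 72hpf the authors mapped with TopHat and deposited FPKM from the Cufflinks package. The authors' own fold columns and lists of changed genes were not used. The TopHat and Cufflinks versions and the annotation are not stated in the sources used here, nor is whether the 2 counts at 36hpf are runs or libraries. Both were treated as 1 sample. The submitters' processing notes also name FastQC.

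Doubled means (whole numbers, no rounding) were scaled by TMM in edgeR 4.0.16, giving effective sizes of 107923889 (mutant-labelled) and 88014843 (sibling-labelled) reads. Intervals are Clopper-Pearson and cover counting error only, because there was 1 sample per genotype and stage. Reads were not marked by molecule and were counted as independent, so the intervals could be too narrow. A change past 2, and as a second rule past 1, was counted. Steps were tested on simulated data in Python 3.11.15. Locus starts in the 72hpf table count from 0 and were raised by 1. The 489 symbols on more than 1 row at 72hpf were left out of the lists and of the comparison of both stages by symbol. Listed genes that were not found by symbol were left out of every count over a list.

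The 10 genes and 14 lists were chosen with earlier results of these data known. Counts over them, and the comparison of early specifiers with later markers, are therefore descriptions. From each related list the 2 highest and 2 lowest changes per stage and any past 2 were named, and the 5 genes nearest to *atoh7* in both changes. Alternatives were DESeq2 1.42.0 size factors, total counts, other priors, pseudocounts and minimums, the larger or the smaller of the 2 counts, and FPKM rescaled by the median ratio. Larger and smaller were set gene by gene, because the 2 counts could not be assigned to a run or library. Sequences were not used here.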

Additional observations from a re-analysis of the deposited data

Results flagged for a closer look

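5 genes had changes of opposite sign at the 2 stages, either as RGC genes with any change or as genes of the related lists with changes past 1 in both directions. The share of all genes with opposite signs was not counted, so this number is not read as a result about the RGC genes. The difference between the stages was not tested, since each stage has 1 sample per genotype. The change at 72hpf minus that at 36hpf was 6.24 for *atoh7*, 3.98 for *cxcr4b*, 2.22 for *isl1*, 1.38 for *isl2b* and 1.31 for *rbpms2b*. Of the RGC genes, 1 (*atoh7*) was past 1 in opposite directions at the 2 stages. The others lay within 1 of 0 at 72hpf.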

How the results depend on the processing

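The sign of the change held for 8 of 8 RGC genes at 36hpf and 10 of 10 at 72hpf under every alternative run. The count of genes at 1 or more at 36hpf was 2 with no filter on low counts, where *pou4f3* enters on 1 read, and 0 with only the smaller of the 2 counts, where *pou4f1* was at 0.76. Relative to the median of the later markers *atoh7* lay at -5.03 with only the larger counts. With total counts in place of TMM, or only the smaller counts, 2 genes were at -2 or less, because *isl1* was at -1.99 in both. The count at -1 or less was 4 in the main run. It was 3 with total counts, a prior of 2 reads or only the larger counts, and 5 with only the smaller counts. *isl2b* (-1.02) and *rbpms2b* (-0.99) lay at that limit. The largest move of any RGC gene was 0.48 (smaller counts) and 0.27 (larger counts), and at most 0.08 otherwise. No paired analysis was possible because the labels give 1 sample per genotype and stage and no replicate numbers, and no replicate could be left out. Places among all genes at 36hpf per length were not run, since the reference used gives no transcript lengths. Depth limits *pou4f3*, *pou4f2*, *pou4f1* and *isl2b* at 36hpf.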

Other observations

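The genes whose pair of changes lay nearest to that of *atoh7* were searched among 10164 genes with at least 100 reads and 5 FPKM in either library, as straight-line distance over the 2 comparisons. None lay within 0.25, and the nearest was at 1.13. This was *tfap2d*, a transcription factor gene of the AP-2 family, with 225 reads in mutant-labelled and 2720 in sibling-labelled eyes at 36hpf (change -3.89) and 20.1 FPKM in mutant-labelled against 11.1 FPKM in sibling-labelled eyes at 72hpf (change 0.80). The lens crystallin gene *crygmxl1* was the next, with changes of -5.21 and -0.01. *ptf1a*, the specifier of amacrine and horizontal cells, came after it on few reads (11 in mutant-labelled, 152 in sibling-labelled eyes, change -4.02) and had a change of 0.19 at 72hpf. *insm1a*, a zinc finger gene of newborn neurons, had 3150 reads in mutant-labelled and 33308 in sibling-labelled eyes (change -3.70) and 58.0 FPKM in mutant-labelled against 49.2 FPKM in sibling-labelled eyes (change 0.23). *scrt2*, a zinc finger gene of newly born neurons, had 374 reads in mutant-labelled against 2646 in sibling-labelled eyes (change -3.12) and 96.7 FPKM in mutant-labelled against 60.0 FPKM in sibling-labelled eyes (change 0.68).

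Among the 8 genes at -2 or less at 36hpf and at 1 or more at 72hpf, the Hairy-related gene *her13* was named after its values were seen. It had 924 reads in mutant-labelled and 3866 in sibling-labelled eyes, and 22.0 FPKM in mutant-labelled against 6.004 FPKM in sibling-labelled eyes at 72hpf. The muscle regulator gene *myod1* was also among them, on 30 reads in mutant-labelled against 120 in sibling-labelled eyes. At 72hpf *myod1* was at 2.62 FPKM in mutant-labelled against 0.50 FPKM in sibling-labelled eyes, so the filter fixed its sign.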
